A study of Bos taurus with 6 samples.

Results

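The 10 genes described here make, desaturate, bind, store, burn or sense long-chain fatty acids: ACACA, FASN, SCD, SCD5, FABP3, FABP4, FABP5, PLIN2, CPT1A and PPARG. They were taken as every probe of a 2-colour bovine oligonucleotide array whose platform symbol is one of these names, which gave 11 of the 43794 probes and 10 of the 15229 gene symbols on it, FABP4 having 2 and each other gene 1. All 11 were bright enough to be tested. RNA of bovine blastocysts was hybridised against RNA of bovine granulosa cells on 6 arrays. The blastocysts were Holstein embryos made in vitro from abattoir oocytes out of follicles of 3 to 6 mm, fertilised with semen mixed from 3 bulls, cultured in SOF medium with 0.8% BSA and collected on day 7. The granulosa cells, the somatic cells of the follicle wall, came from follicles over 5 mm of lactating Holstein cows at day 8 to 11 after oestrus. FSH was begun 36 h after the existing follicles had been aspirated and was given as 6 injections of 40 mg, with ultrasound-guided harvest 44 h after the last one, followed by picking under a microscope. Each cell type was represented by 3 RNA pools, numbered 1 to 3 in the titles, and each numbered pair of pools was hybridised on 2 arrays with the dyes exchanged. The labels call them biological replicates, but how many embryos or cows went into a pool is not stated in them. RNA was amplified before dye labelling, so the spread between pools holds technical steps too.

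Long-chain fatty acids are built in the cytosol from acetyl-CoA. Acetyl-CoA carboxylase (ACACA) makes malonyl-CoA, fatty acid synthase (FASN) chains it into palmitate, and stearoyl-CoA desaturases (SCD, SCD5) add a double bond to the saturated product. Fatty acid-binding proteins (FABP3, FABP4, FABP5) carry the acids through the aqueous cytoplasm, perilipin 2 (PLIN2) coats the droplets in which they are stored as triglyceride, and carnitine palmitoyltransferase 1A (CPT1A) commits them to mitochondrial oxidation. PPARG is a nuclear receptor that fatty acids and their derivatives can bind, and FABP4 and PLIN2 are among its known targets in fat cells and macrophages. Oocytes and early embryos of cattle are rich in lipid droplets, and granulosa cells of the growing follicle turn cholesterol, another lipid, into steroids. No probe or protein sequence came with the files used here, so the probes are given by their identifiers.

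Both cell types carried some of their known markers, and the granulosa pools differed from each other in markers of other cells. Of 12 tested granulosa genes 4 passed towards granulosa cells (INHA, INHBA, FST and GJA1) and none towards blastocysts, while 5 of 6 inner cell mass genes and 3 of 7 trophectoderm genes passed towards blastocysts. Each marker gene was taken by its brightest probe, and the other GJA1 probe (log2 ratio -1.82, blastocyst over granulosa cells) did not pass. The aromatase gene CYP19A1 had log2 levels of 10.41, 8.72 and 13.11 in granulosa pools 1 to 3, and the steroidogenic cholesterol carrier STAR had 11.77, 13.64 and 7.65. The mean log2 ratio of that CYP19A1 probe was -3.22, against -1.11 and -0.30 for its other probes. For STAR it was -0.72, against -1.02 and -0.31. The 9 leukocyte genes summed to 43596, 3626 and 2123 intensity units in granulosa pools 1 to 3, against 1288 to 1586 in the blastocyst pools. The 7 endothelial genes summed to 7809, 6177 and 1043 (1045 to 1117 in blastocysts), the 9 theca and stroma genes to 55486, 71827 and 14601 (12208 to 15992), and the 5 epithelial genes to 5439, 47957 and 1797 (72819 to 87905). The 5 adipocyte genes summed to 2711, 1693 and 798 (814 to 859). Single bright genes carried much of some sums, so each was also taken without the gene brightest in any granulosa pool, a choice made after seeing the data. Without the lysozyme gene LYZ, near the scanner limit on 2 arrays, the leukocyte sums were 7470, 2986 and 1385, and CD68, a macrophage gene, was higher in pool 2 (9.17) than in pool 1 (8.60). Without the complement factor gene CFD, at 10.98, 10.02 and 7.39, the adipocyte sums were 687, 653 and 631, against 658 to 681 in blastocysts. Without KDR the endothelial sums were 3226, 2486 and 929, without COL3A1 those of theca and stroma 19474, 34426 and 13239, and without EPCAM the epithelial ones 4706, 24206 and 1636. Either way pool 1 had the highest leukocyte and endothelial sums and pool 2 the highest epithelial and theca and stroma sums. Pool 3 had the lowest sum of all of these lists. In the theca and stroma list, COL3A1, DCN, PDGFRA, COL1A1, ACTA2 and INSL3 were highest in pool 2, INSL3 only at 7.79. PTCH1 (12.03, 11.80 and 12.25) and LHCGR (6.88, 7.16 and 7.36) were highest in pool 3, and CYP17A1 ran from 7.06 to 7.16. In bulk RNA, fewer cells of a type and less RNA per cell cannot be told apart.

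**Figure D1:**
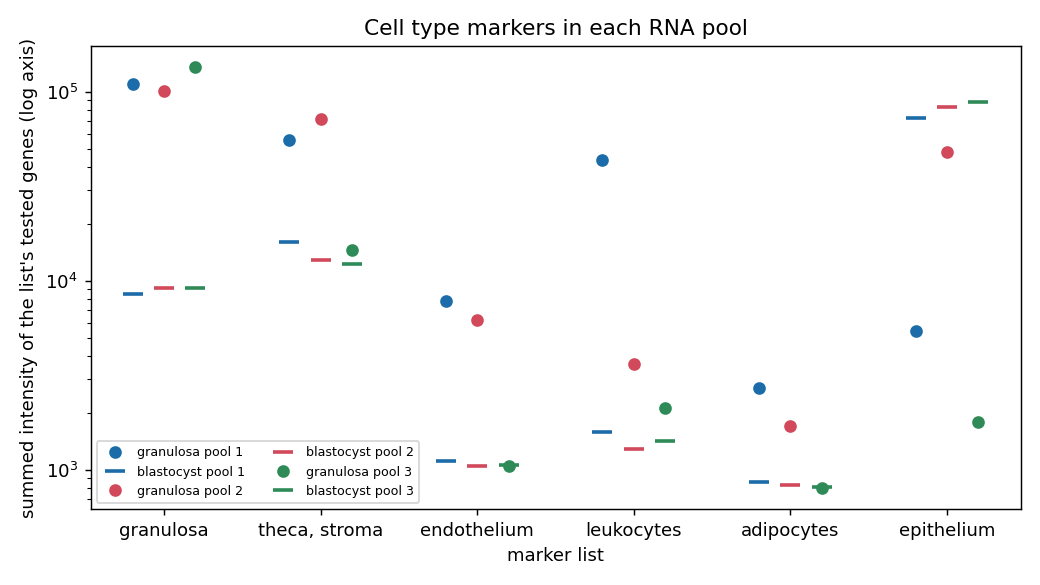
Summed intensity of the tested genes of 6 marker lists (log axis, linear intensity units) in the 3 granulosa pools (circles) and the 3 blastocyst pools (dashes). Leukocyte genes stand at 43596 in granulosa pool 1 and at most 3626 in the other granulosa pools, and epithelial genes stand at 47957 in granulosa pool 2.

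The main comparison asked for which of these genes embryo and granulosa RNA differ. A gene's ratio is given as log2 of blastocyst over granulosa cells, so that negative values are higher in granulosa cells, and a probe passed at a limma adjusted p under 0.05 with at least a 2-fold difference. SCD5, PPARG and SCD were higher in granulosa cells and FABP3 was higher in blastocysts. The 7 other probes, those of ACACA, FASN, CPT1A, PLIN2, FABP5 and the pair for FABP4, did not pass. These 4 calls among 11 probes (36.4%) stand against 10.1% of the 35034 probes tested, the 3 towards granulosa cells against 5.18% and the 1 towards blastocysts against 4.93%. Many of those probes have no gene symbol. Over the 13227 genes tested, each by its brightest probe, the shares were higher, at 14.3%, 8.15% and 6.18% in the same order. The median log2 ratio of the 11 probes was -0.11, and that of all tested probes was -0.01. The calls rested on all 3 replicates: 2 of the 11 probes passed without replicate 1, none without replicate 2 and 2 without replicate 3. Without replicate 2 limma called no probe on the whole array, although 8497 had an unadjusted p under 0.05, 4 of them among the 11. The smallest adjusted p over probes was then 0.0546. With adjustment over genes, used for the lists below, some genes still passed without replicate 2.

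**Figure D2:**
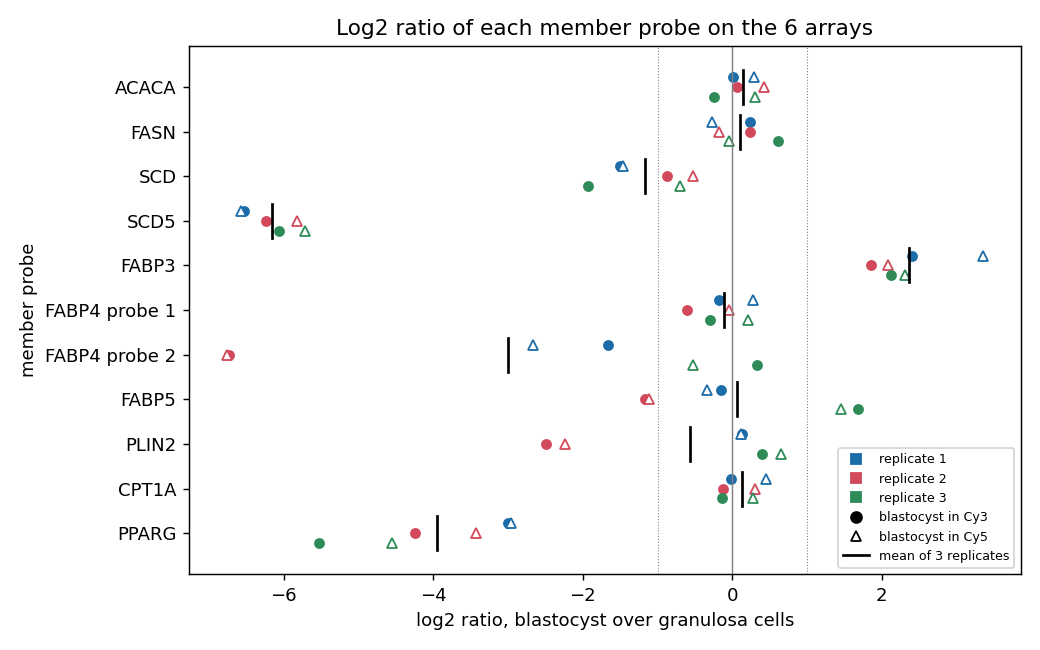
Log2 ratio (blastocyst over granulosa cells, x axis) of the 11 probes (y axis) on each of the 6 arrays, coloured by replicate, with circles for blastocyst RNA in Cy3, triangles for blastocyst RNA in Cy5, black bars for the mean of 3 replicates and dotted lines at 2-fold. SCD5 lies between -6.57 and -5.71 on every array, while FABP4 probe 2 (EMBV3_18531) runs from -6.76 to 0.33.

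The enzymes of de novo synthesis gave dim signals in both cell types. ACACA (probe EMBV3_31559) had log2 levels of 7.26, 7.02 and 6.90 in blastocyst pools 1 to 3 and of 7.11, 6.77 and 6.87 in granulosa pools 1 to 3. In blastocysts 3 of 6 arrays showed it above background and in granulosa cells 1. Its ratio was 0.14 ± 0.11 (SD, n = 3; adjusted p = 0.228), with a 95% interval from -0.06 to 0.34. By dye it was 0.01, 0.07 and -0.25 with blastocyst RNA in Cy3 and 0.29, 0.42 and 0.30 in Cy5. The levels of the cell types overlapped. FASN (EMBV3_38637) had 7.08, 7.46 and 7.37 in blastocysts and 7.10, 7.43 and 7.09 in granulosa cells, above background on 5 and 4 arrays. Its ratio of 0.10 ± 0.16 (adjusted p = 0.442, interval -0.15 to 0.35) did not pass, and by dye it was 0.24, 0.24 and 0.61 with blastocyst RNA in Cy3 but -0.27, -0.18 and -0.04 in Cy5. For both probes a difference was not detectable at signals this close to background. Without normalization the direction of both turned, to -0.02 for ACACA and -0.10 for FASN, where the median of all probes itself moved to -0.20.

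The desaturases were both higher in granulosa cells. SCD5 (EMBV3_02032), the form found in cattle and primates but not in rodents, gave ratios of -6.53, -6.24 and -6.06 on the arrays with blastocyst RNA in Cy3 and of -6.57, -5.83 and -5.71 on those with it in Cy5. No array came near 0. Its log2 level was 14.45, 13.65 and 14.60 in granulosa pools 1 to 3 and 7.90, 7.61 and 8.72 in blastocyst pools 1 to 3, so the groups lay more than 4 log2 units apart. The mean ratio of -6.16 ± 0.35 (SD, n = 3) is a 71.3-fold difference (95% interval 50.9 to 99.9; adjusted p = 0.00382), and SCD5 was above background in both cell types on all 6 arrays. It lost its call only without replicate 2, at an unchanged size (-6.22, adjusted p = 0.0546).

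SCD (EMBV3_35845), the main desaturase of bovine fat and mammary gland, was bright in both. Its ratio was -1.50, -0.87 and -1.93 with blastocyst RNA in Cy3 and -1.47, -0.53 and -0.70 in Cy5. All 6 arrays were negative, but those of replicate 3 differed by 1.23. The log2 level was 14.94, 15.20 and 15.15 in granulosa pools and 13.46, 14.50 and 13.84 in blastocyst pools, with no overlap. The mean of -1.17 ± 0.41 (2.24-fold, interval 1.51 to 3.33; adjusted p = 0.0420) passed narrowly. The raw granulosa signal exceeded 30000 on 5 of 6 arrays, close to where the scanner saturates, and SCD was not tested where such probes were removed. Its fold may therefore be too small, which the interval does not cover, and it is not set against that of SCD5. The call ended without background correction (adjusted p = 0.0516), with median centring (-0.92, adjusted p = 0.0784), on the authors' net intensities (adjusted p = 0.0537) and without each replicate in turn (adjusted p from 0.0588 to 0.146).

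The fatty acid-binding proteins behaved differently from each other. FABP3 (EMBV3_40320), the heart-type protein, was higher in blastocysts on all arrays, with ratios of 2.41, 1.86 and 2.13 with blastocyst RNA in Cy3 and 3.35, 2.08 and 2.32 in Cy5. Its log2 level was 10.34, 9.73 and 10.12 in blastocyst pools and 7.46, 7.76 and 7.89 in granulosa pools, without overlap. The mean of 2.36 ± 0.47 is a 5.13-fold difference (interval 3.28 to 8.00; adjusted p = 0.0156). The call ended without replicate 2 (2.55, adjusted p = 0.0689) and without replicate 3 (2.43, adjusted p = 0.0648).

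FABP4, the form of fat cells, macrophages and capillary endothelium, had a bright signal in granulosa pool 2. By probe EMBV3_18531 its log2 level was 9.14, 13.78 and 7.23 in granulosa pools 1 to 3, a 94.0-fold range, against 6.98, 7.04 and 7.13 in blastocysts. The ratio was accordingly -1.66, -6.73 and 0.33 with blastocyst RNA in Cy3 and -2.66, -6.76 and -0.52 in Cy5. The arrays of replicate 2 gave nearly the same value and those of replicate 3 lay on either side of 0. This probe was above background on 4 arrays in blastocysts and on 5 in granulosa cells. In granulosa pool 3 it was above background with granulosa RNA in Cy3 but not in Cy5, so the low end of the 94.0-fold range lies close to background. The mean of -3.00 ± 3.40 did not pass (adjusted p = 0.257; interval -7.57 to 1.57). The other probe, EMBV3_11106, stayed dim, at 7.16, 7.42 and 7.12 in granulosa pools and 7.20, 7.09 and 7.08 in blastocyst pools. It was above background on 5 arrays in each cell type. Its ratio was -0.11 ± 0.20 (adjusted p = 0.478), with -0.33 in replicate 2 and 0.05 and -0.04 in replicates 1 and 3. By dye it was -0.18, -0.61 and -0.30 with blastocyst RNA in Cy3 and 0.27, -0.04 and 0.21 in Cy5. The probes thus had their lowest ratio and their highest granulosa level in the same pool but differed in size, and what part of the transcript each one reads is not given in the files used here.

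FABP5 (EMBV3_19832), the epidermal form, changed direction between replicates. Its ratios were -0.16, -1.17 and 1.69 with blastocyst RNA in Cy3 and -0.34, -1.11 and 1.46 in Cy5, a mean of 0.06 ± 1.38 (adjusted p = 0.951; interval -1.80 to 1.92). The granulosa level was 8.25, 9.55 and 7.35 and the blastocyst level 8.00, 8.41 and 8.92 in pools 1 to 3. The highest granulosa pool lay above all blastocyst pools and the lowest below all of them. FABP5 and FABP4 are neighbours in the RefSeq annotation of the ARS-UCD2.0 assembly, with only PMP2 and FABP9, a pair of genes of the same family, between them.

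PLIN2 (EMBV3_40185), the droplet coat protein, was bright in both cell types and was highest in granulosa pool 2. Its granulosa level was 12.11, 13.94 and 11.92 and its blastocyst level 12.23, 11.58 and 12.45. The ratio was 0.13, -2.49 and 0.40 with blastocyst RNA in Cy3 and 0.11, -2.23 and 0.66 in Cy5. Only replicate 2 showed more PLIN2 in granulosa cells, and there its blastocyst level was also the lowest of the 3 pools. The mean of -0.57 ± 1.56 did not pass (adjusted p = 0.592; interval -2.67 to 1.54) and turned to 0.33 without replicate 2.

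CPT1A (EMBV3_04980), the gate to mitochondrial oxidation, was dim throughout. Its log2 level was 7.34, 7.15 and 7.16 in blastocyst pools and 7.13, 7.06 and 7.09 in granulosa pools. It lay above background on 6 arrays in blastocysts and on 3 in granulosa cells, all 3 with granulosa RNA in Cy3. Its ratio of 0.12 ± 0.08 did not pass (adjusted p = 0.226; interval -0.05 to 0.29), and without normalization it was -0.09. The sign went with the dye, at -0.02, -0.13 and -0.14 with blastocyst RNA in Cy3 and 0.45, 0.30 and 0.28 in Cy5.

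PPARG (EMBV3_23103) was higher in granulosa cells on every array. The ratio was -3.00, -4.24 and -5.53 with blastocyst RNA in Cy3 and -2.96, -3.42 and -4.56 in Cy5. The granulosa level was 10.15, 10.74 and 12.05 in pools 1 to 3, while the blastocyst level stayed between 6.91 and 7.17. The mean of -3.95 ± 1.04 is a 15.5-fold difference (interval 5.88 to 40.8; adjusted p = 0.0239). In blastocysts the probe was above background on 3 of 6 arrays, those with blastocyst RNA in Cy5, so the dim side of this ratio is close to the limit of the measurement. The call ended without replicate 1 (-4.44, adjusted p = 0.0529) and without replicate 2 (-4.01, adjusted p = 0.125).

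**Figure D3:**
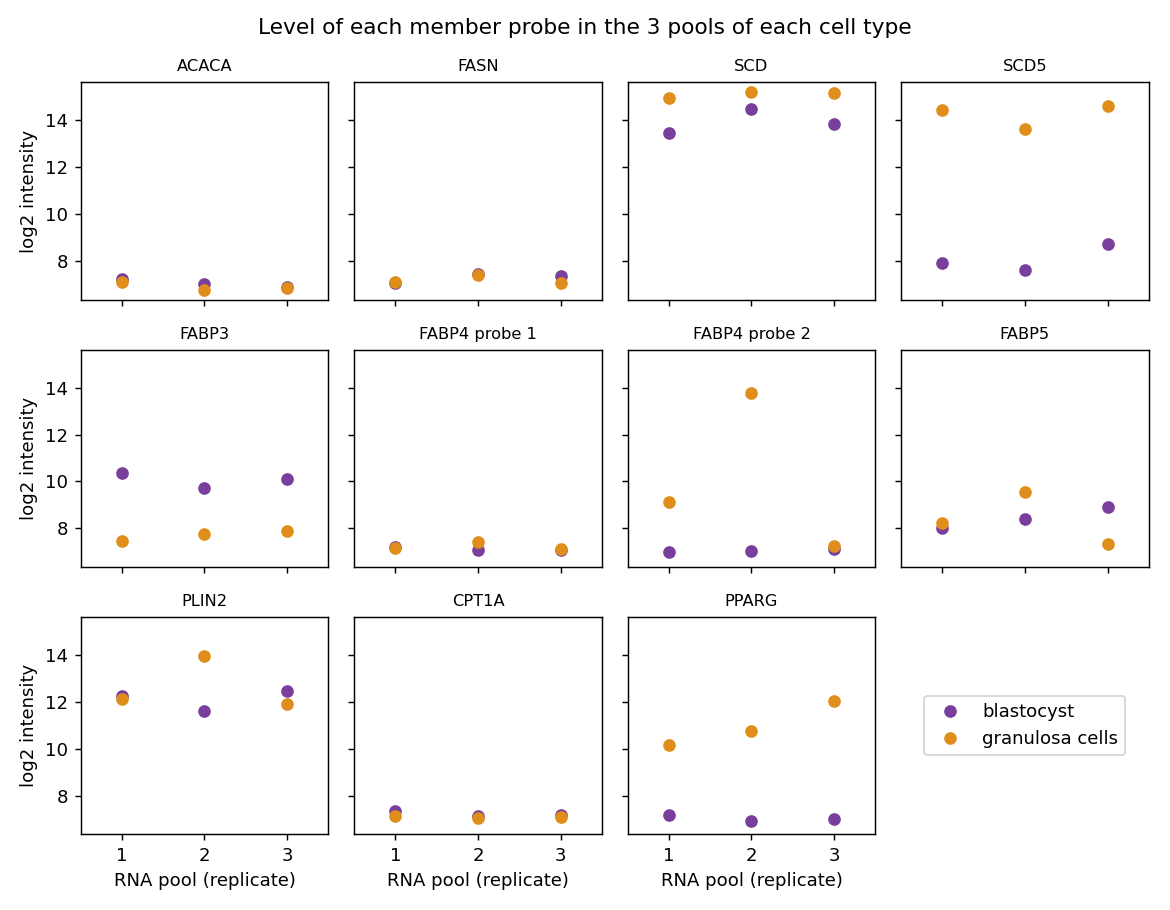
Log2 intensity of each of the 11 probes (y axis, after normalization) in RNA pools 1 to 3 (x axis) of blastocysts and of granulosa cells, each point the mean of 2 arrays of opposite dye. Levels of different probes are not comparable. FABP4 probe 2 (EMBV3_18531), FABP5 and PLIN2 are highest in granulosa pool 2 and PPARG in granulosa pool 3.

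A further comparison asked whether a probe's ratio differed between replicates by more than the spread of the 2 arrays that share a pair of pools. By limma's F test with a dye term, 7 of the 11 probes, from 6 genes, had an adjusted p under 0.05. Over all tested probes, many of them without a gene symbol, the share was 37.7%. Over the 13227 genes tested, each by its brightest probe, it was 49.9%, so that such variation was common on these arrays. The test was passed by FABP4 probe EMBV3_18531 (adjusted p = 1.26e-07), PLIN2 (3.66e-07), FABP5 (7.10e-07), PPARG (0.000123), SCD5 (0.00649), FABP3 (0.00656) and FABP4 probe EMBV3_11106 (0.0336). In size these differed. The ratio ranged over 6.65 log2 units for FABP4 probe EMBV3_18531, 2.89 for PLIN2, 2.72 for FABP5 and 2.06 for PPARG, but over only 0.66 for SCD5 and 0.91 for FABP3, against a median range of 0.26 for all tested probes. With median centring in place of loess 5 of the 11 probes passed, and 19.9% of all tested probes.

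The variation in FABP4, FABP5 and PLIN2 lay mostly in the granulosa channel. Their granulosa levels spanned 6.55, 2.20 and 2.02 log2 units over the pools, against 0.15, 0.92 and 0.87 for their blastocyst levels. These 3 of the 11 probes passed the F test with a granulosa range of at least 2 log2 units, a limit set after the ratios had been seen, as did 2.65% of all tested probes. All 3 were highest in granulosa pool 2, as were 46.6% of the probes on the array that met the same limit, with 45.1% highest in pool 1 and 8.39% in pool 3. PPARG, with a granulosa range of 1.90, was highest in pool 3 instead, the pool with the highest CYP19A1 level (13.11) and the lowest sums of leukocyte (2123) and endothelial (1043) genes. Pool 2 was also the granulosa pool with the highest STAR level (13.64), the highest epithelial sum (47957) and the highest theca and stroma sum (71827). The leukocyte sum was highest in pool 1, where FABP4 was at 9.14. Of the 7 endothelial genes, KDR (12.16, 11.85 and 6.83), EMCN (10.65, 9.43 and 7.06), TEK (9.61, 9.93 and 7.60) and VWF (8.18, 8.14 and 7.20) were higher in granulosa pools 1 and 2 than in pool 3. CLDN5 ran from 7.47 to 7.84 over these pools, PECAM1 from 6.94 to 7.48 and CDH5 from 7.24 to 7.28. The part of these other cells in the levels of FABP4, FABP5, PLIN2, PPARG or any other of the 10 genes was not tested.

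The other genes of fatty acid metabolism were split between the cell types. Of 137 genes in 6 lists, 114 were tested by the brightest probe of each, and 12 passed towards blastocysts and 8 towards granulosa cells, in all 17.5% against 14.3% of the 13227 genes tested. Over all genes, 6.18% passed towards blastocysts and 8.15% towards granulosa cells. The median ratio over the 114 genes was -0.06, against -0.02 for all genes. Their F test passed for 60 (52.6%), against 49.9% of all genes. Adjusted p-values here are over genes, and these lists, like the 10 genes, were drawn up with earlier results of these data known.

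Of 9 genes that supply fatty acid synthesis, 1 passed each way. ACLY, which releases acetyl-CoA in the cytosol, was 4.63-fold higher in blastocysts (2.21 ± 0.64, adjusted p = 0.0230), and malic enzyme ME1, a source of NADPH, was 5.66-fold higher in granulosa cells (-2.50 ± 0.75, adjusted p = 0.0246). Of 15 genes of elongation and further desaturation, 3 passed towards blastocysts and 1 towards granulosa cells. ELOVL6, which extends palmitate, led with 13.3-fold (3.73 ± 0.78), ahead of the delta-6 desaturase FADS2 (2.41 ± 0.46) and ELOVL1, which makes very long chains (1.57 ± 0.21). The other ELOVL6 probes ran from 0.43 to 3.22. CYB5A, the cytochrome that hands electrons to desaturases, was higher in granulosa cells (-2.03 ± 0.48), although its other probes gave -0.10 and 0.61, and its value became 0.61 once probes close to scanner saturation were removed. FADS1 (0.87 ± 0.35, adjusted p = 0.0429) missed the fold required and ELOVL5 (0.36 ± 0.15, adjusted p = 0.0597) did not pass.

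Of 19 genes of fatty acid uptake, activation and binding, 2 passed towards blastocysts and none towards granulosa cells. ACSL3, an acyl-CoA synthetase of nascent lipid droplets, was 21.0-fold higher in blastocysts (4.39 ± 0.18, adjusted p = 0.00333), and its other 2 probes gave 2.38 and 2.55. ACSL6, a related synthetase, was 11.5-fold higher (3.52 ± 0.80). The other acyl-CoA synthetases of this family, ACSL1 (0.35), ACSL4 (-0.59) and ACSL5 (-2.63), named here after their values were seen, did not pass. The other ACSL5 probe gave 0.08. The fatty acid translocase CD36 did not pass by its brightest probe (-0.23 ± 0.09, adjusted p = 0.0803), nor by its other probes (-2.12 and -1.35).

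Of 25 genes of triglyceride assembly and the lipid droplet, 4 passed towards blastocysts and 1 towards granulosa cells. The acyltransferases AGPAT4 (2.87 ± 0.41), AGPAT5 (2.46 ± 0.06) and GPAT3 (2.01 ± 0.50) were higher in blastocysts, with other probes of AGPAT5 at 0.53 to 1.41 and of GPAT3 at -0.04 to 0.89. FITM2, which helps droplets bud from the endoplasmic reticulum, was higher in granulosa cells (-1.33 ± 0.47, adjusted p = 0.0342), while its other probe gave -0.50 and did not pass. The final enzymes of triglyceride synthesis, DGAT1 (0.06 ± 0.05, adjusted p = 0.391) and DGAT2 (-0.22 ± 2.35, adjusted p = 0.889), and the lipase PNPLA2 (0.42 ± 0.42, adjusted p = 0.202) did not pass. The other DGAT2 probe gave -0.00438.

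Of 25 oxidation genes, 3 passed towards granulosa cells and 2 towards blastocysts, with a list median of -0.32. The acyl-CoA dehydrogenases ACADSB (-1.97 ± 0.25, adjusted p = 0.00766) and ACADL (-1.97 ± 0.68, adjusted p = 0.0313) and the enoyl-CoA hydratase ECHS1 (-1.49 ± 0.49, adjusted p = 0.0287) were higher in granulosa cells. The isomerase ECI1 was higher in blastocysts (1.41 ± 0.06), while its other probe gave -0.40. CPT2, the partner of CPT1A on the inner membrane, stood at -0.15 ± 0.24 (adjusted p = 0.405). Of 21 regulators, 2 passed towards granulosa cells and none the other way. These were NRIP1, a corepressor of nuclear receptors (-1.78 ± 0.29, adjusted p = 0.00961), whose other probe gave -0.44, and PRKAA2, a catalytic subunit of the AMP-activated kinase. PRKAA2 was above background on no blastocyst array. Its ratio was -1.53 ± 0.49 (adjusted p = 0.0277; interval -2.21 to -0.86), with -1.08 in replicate 2. The bound of 2.72-fold on its mean, given for the dim blastocyst signal, does not cover the spread between replicates. SREBF1, the main transcriptional activator of fatty acid synthesis (0.34 ± 0.32, adjusted p = 0.188), and RXRA, the partner receptor of PPARG (-0.07 ± 0.06, adjusted p = 0.342), did not pass. Of the 18 named genes of these lists that passed, 7 no longer passed when replicate 1 was left out, 13 when replicate 2 was and 3 when replicate 3 was.

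**Figure D4:**
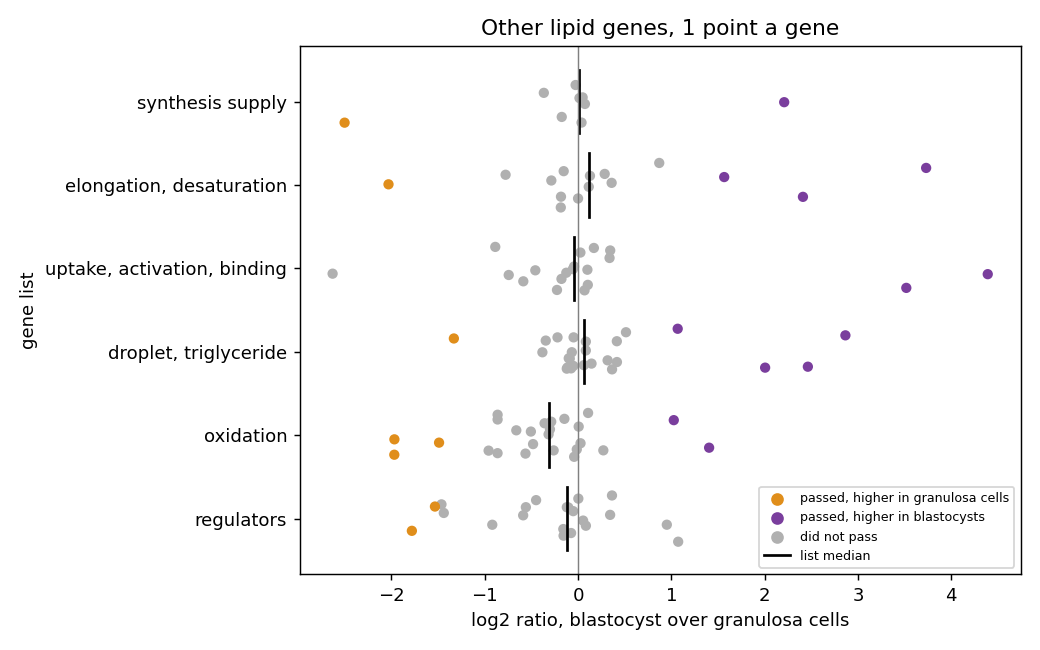
Log2 ratio (blastocyst over granulosa cells, x axis) of the 114 tested genes of 6 lists of fatty acid metabolism (y axis), 1 point a gene by its brightest probe, with black bars for list medians. The coloured points are the 12 genes that passed towards blastocysts and the 8 that passed towards granulosa cells.

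The genes whose levels over the 6 pools were most like those of SCD5 were ZNF280D, NOSTRIN and RABL2B, each with a Pearson r of 0.999 across 3 blastocyst and 3 granulosa pools. Those most like FABP3 were COQ6 (r = 0.999), RTCB (r = 0.999) and SEPHS1 (r = 0.998). These 6 points share arrays in pairs and fall into 2 clusters by cell type, so any gene with a steady ratio between the cell types comes close to such values. The like genes had smaller ratios than SCD5, at -1.07, -3.25 and -1.99, and than FABP3, at 1.38, 1.61 and 1.09.

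**Figure D5:**
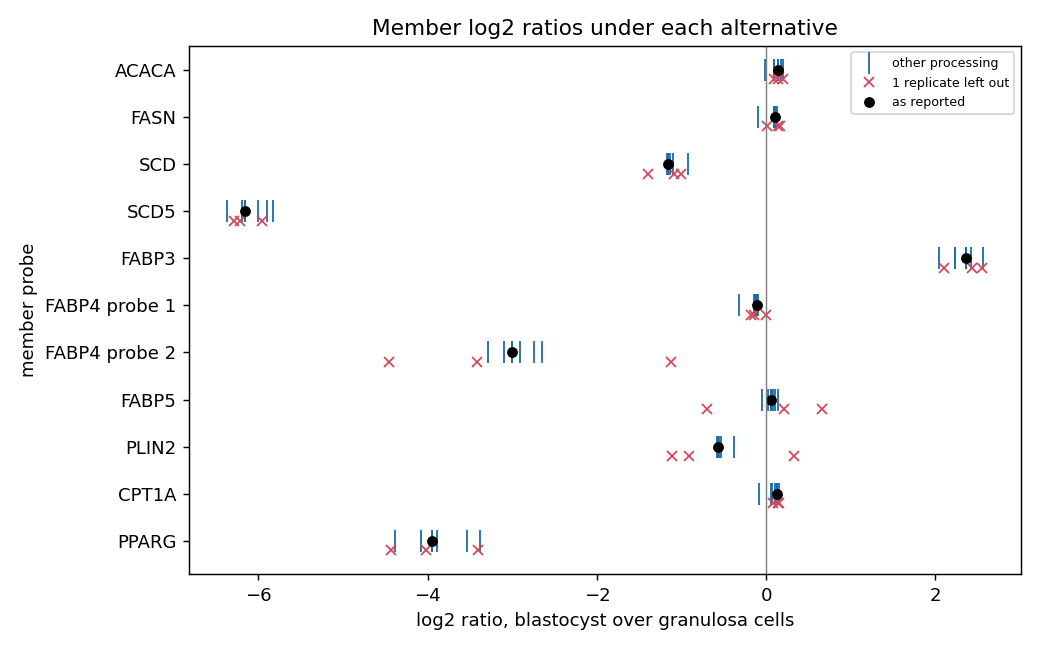
Log2 ratio of the 11 probes (blastocyst over granulosa cells) as reported (black), under 10 other ways of processing (blue bars) and with each replicate left out (red crosses). SCD5, PPARG and FABP3 keep their direction throughout, whereas PLIN2 crosses 0 without replicate 2 and FABP5 without replicate 3.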

How the data were processed

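From the deposited files, each spot's mean intensity and median local background were read at 532 nm (Cy3) and 635 nm (Cy5), raw values per the file headers. The authors' value table, a score without a stated unit, was matched by dividing one channel's log2 net intensity by the other's. The quotient was given a minus sign for the arrays titled blastocyst, and 100% of values then matched within 1e-04. The score has column medians of -0.998, -0.998 and -1.00 for the arrays titled blastocyst and 1.00, 0.999 and 1.00 for those titled granulosa. It is not a log ratio. Its scale, centring and direction were settled by this match. For the array titled granulosa 2 the wavelengths stand in reverse order, so columns were read by name. Array medians of raw Cy3 intensity lay between 189 and 386, those of Cy5 between 177 and 210. Precision is limited by how few arrays there are.

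With limma 3.58.1 in R 4.3.3, intensities were corrected by normexp (offset 50) and normalized by loess with control spots at weight 0. Levels are log2 intensities after Aquantile. Probes above the 95th percentile of 153 negative controls on at least 3 of 6 arrays in either cell type were tested, 35034 in all. Same-numbered arrays of opposite dye were averaged and 3 replicates tested by lmFit and eBayes. Every adjusted p is limma's, after Benjamini-Hochberg. Deviations from the mean of each orientation correlated at 0.85 to 0.93 for same-numbered arrays, so the numbers, from the titles, were taken as pairing. The test was also run on simulated data, but the outcome is not given here.

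The probe table names 21790 probes, and symbols were updated through RefSeq (20025 current, 1524 by synonym, 241 kept). The genes and lists were chosen with earlier results of these data known. Text names all 11 probes, up to 4 passing genes a list with the largest ratios, and a set of standing pathway genes. Of those, LPL, LIPE and PPARA were not tested. Figures used Python 3.11.15 and matplotlib 3.10.9.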

Additional observations from a re-analysis of the deposited data

How the results depend on the processing

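The count of 4 passing probes among 11 was 3 or 4 under the 10 other ways of processing and 0 to 2 with a replicate left out. The number of probes passing on the whole array went from 3541 to between 0 and 2538 with a replicate left out, that of genes from 1896 to between 855 and 1670, and that of the 114 listed lipid genes from 20 to between 6 and 20. The F test between replicates passed for 13223 probes, and for 6963 with median centring. Fits on 6 arrays with the replicate block and a dye term called 4817 probes and those without a block 4926, and in both the same number of the 11 probes passed, 4. SCD5 stayed between -6.37 and -5.82, PPARG between -4.44 and -3.38 and FABP3 between 2.04 and 2.56 over all alternatives. Directions turned for values that had not passed. Without normalization FASN was -0.10, ACACA -0.0166, CPT1A -0.0876, FABP5 -0.0496 and DGAT1 -0.14. With each replicate left out in turn PLIN2 ran from -1.12 to 0.33, FABP4 probe EMBV3_11106 from -0.18 to 0.00304, FABP5 from -0.70 to 0.66 and DGAT2 from -1.02 to 1.13. Among values that had passed, CYB5A turned to 0.61 without probes near the scanner limit, where another probe stood for it. Signals near background limit ACACA, FASN, CPT1A, RXRA, FABP4 probe EMBV3_11106 and the blastocyst side of PPARG, and those near the scanner limit SCD. They also limit FABP4 probe EMBV3_18531 in blastocysts and in granulosa pool 3. Leaving out a replicate leaves fewer degrees of freedom.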

Other observations

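Some lipid genes outside the 10 varied between the granulosa pools in another order. DGAT2, the final acyltransferase of triglyceride synthesis, had by its brightest probe a log2 level of 12.13 in granulosa pool 1. In pools 2 and 3 it had 7.98 and 7.87. The ratio by that probe was -2.92, 0.88 and 1.38 in replicates 1 to 3 (F test between replicates, limma adjusted p = 4.04e-08). The other DGAT2 probe had a mean ratio of -0.00438. ACSL5, an acyl-CoA synthetase chosen after its values were seen, had by its brightest probe 11.37, 10.97 and 7.72 in granulosa pools 1 to 3 (adjusted p = 1.41e-07 in the same test). It did not pass between the cell types (-2.63 ± 2.09, adjusted p = 0.135), and the other ACSL5 probe had a mean ratio of 0.08. Pool levels of the other DGAT2 and ACSL5 probes are not given here. Pool 1 was the pool with the highest leukocyte sum, and pools 1 and 2 those with the higher endothelial sums. Whether these cells carried the DGAT2 and ACSL5 signals was not tested.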
